A study of Mus musculus with 4 samples.

Results

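The kinases described here are 9 cytoplasmic tyrosine kinases that carry or restrain antigen receptor signals: Blk, Lyn, Fyn, Fgr and Yes1 of the Src family, Syk, the Tec family members Btk and Tec, and Csk. They were taken by symbol from a table of 23275 genes, each had 1 entry, and all 9 were among the 12683 entries that the authors tested. Polyadenylated RNA had been sequenced from cells sorted by FACS as B220+CD43+, an early B-lineage phenotype, from bone marrow of C57BL/6 mice at 8 weeks of age. The wild-type group was Hdac3+/+Mb1cre+/- and the knockout group, labelled HDAC3 KO, was Hdac3F/-Mb1cre+/-, so both carried the recombinase Mb1-cre, which acts in B-lineage cells from an early stage. There were 2 libraries per genotype, each from the pooled cells of 2 mice. Cells of the gate that do not express Mb1-cre keep the conditional allele beside the null one. Below, "knockout" means the whole sorted population.

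Src family kinases sit at the inner face of the plasma membrane and phosphorylate the tyrosine motifs of receptor chains such as Cd79a and Cd79b. Syk docks on these motifs through its tandem SH2 domains and phosphorylates the adaptor Blnk, on which Btk meets and activates the phospholipase Plcg2. Csk holds Src family kinases inactive by phosphorylating their C-terminal tail, and the phosphatase Ptprc (CD45) removes that phosphate. In developing B cells these kinases act below the pre-B-cell receptor, and Blk, Lyn and Fyn are the Src family kinases usually named there.

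Every level below is the authors' group value in FPKM, which counts fragments relative to transcript length and library size, with 1 value per genotype, and can be compared between genes. Values of single libraries were not used here, so no spread between libraries can be given, and whether the groups overlap cannot be said. Fold changes are knockout over wild type. The standard error (SE) beside a log2 fold change is that change divided by the authors' test statistic, an approximate measure that rests on their model of 2 libraries per genotype. A gene was called changed, and is said to rise or fall, where the q-value in the authors' deposited table was under 0.05. The depth of the libraries is unknown. Hdac3 itself was 46.8 in wild-type and 22.0 FPKM in knockout cells, a fall that passed the test. The value covers the whole gene, including exons outside the deleted part. The knockout mice also carry 1 null allele in all cells. The parts of that allele and of the deletion in this fall cannot be told apart. Of the genes that define the gate, Ptprc was 187 and 204 FPKM, over the whole CD45 gene and not its B220 form alone. Spn (CD43) was 89.2 and 109 FPKM. All 12 B-lineage markers, Ptprc among them, reached 35.5 FPKM or more in both genotypes. Markers of other cells were present as well, as given below beside the kinases they concern.

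Promoter sequences, 250 bases before to 50 bases after the annotated start, were held in RefSeq (GRCm38.p6) for 7 of the 9 kinases, and those of Blk and Lyn were not used here. The 3 below are shown because they belong to kinases of very different level and differ in base make-up. Capitals mark matches, on either strand, to GAGGAA (the PU box of PU.1-family factors) and GGGCGG (the GC box).
Btk, chrX:134583091-134583390, minus strand: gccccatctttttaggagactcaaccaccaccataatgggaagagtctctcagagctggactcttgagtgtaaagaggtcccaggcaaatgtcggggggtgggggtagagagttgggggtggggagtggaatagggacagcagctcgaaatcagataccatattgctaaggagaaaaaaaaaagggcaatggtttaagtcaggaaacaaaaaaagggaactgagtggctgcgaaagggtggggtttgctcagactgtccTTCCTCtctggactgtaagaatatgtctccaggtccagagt
Fyn, chr10:39369549-39369848, plus strand: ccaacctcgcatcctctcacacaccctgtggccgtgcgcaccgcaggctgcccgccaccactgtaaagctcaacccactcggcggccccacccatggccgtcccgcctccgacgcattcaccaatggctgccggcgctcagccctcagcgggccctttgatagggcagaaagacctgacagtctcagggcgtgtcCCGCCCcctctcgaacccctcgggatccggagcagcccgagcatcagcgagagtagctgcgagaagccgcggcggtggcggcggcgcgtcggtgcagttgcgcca
Yes1, chr5:32610921-32611220, plus strand: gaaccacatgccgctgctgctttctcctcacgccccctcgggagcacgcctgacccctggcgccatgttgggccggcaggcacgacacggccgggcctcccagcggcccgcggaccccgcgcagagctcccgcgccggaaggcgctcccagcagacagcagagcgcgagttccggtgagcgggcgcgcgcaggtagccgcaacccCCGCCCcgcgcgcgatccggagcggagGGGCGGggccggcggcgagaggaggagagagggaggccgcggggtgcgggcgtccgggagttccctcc
The Btk window was 49.3% G and C with 3 CG dinucleotides, the Fyn window 69.0% with 31, and the Yes1 window 77.0% with 42. Yes1 thus had the window richest in G and C among the 7 kinases and, as given below, the lowest transcript level. The PU box letters occur in 28.3% of the 32851 promoters of the same length and the GC box letters in 35.7%. The Btk window held the PU box once, written in capitals as its reverse complement, the Fyn window held 1 GC box and the Yes1 window held 2. The octamer ATGCAAAT, bound by Oct factors, was in none of the 9 windows of the 7 kinases (Csk and Syk each have 2 annotated starts), and it occurs in 1.74% of all windows. These are matches of letters and say nothing of binding.

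Blk was the only one of the 9 kinases whose transcript changed, and it fell. Its level was 68.2 in wild-type and 42.8 FPKM in knockout cells, a 1.59-fold decrease. The other 8 kinases had fold changes above 1 and did not pass the test, from Csk at 1.01-fold to Yes1 at 1.90-fold, although centring on the median gene took Csk and Lyn just below 1. The median log2 fold change of the 9 was 0.14, against 0.03 for the 12643 tested entries with a finite value. Of all tested entries 6.95% were called, 2.81% higher and 4.14% lower, so 1 call among 9 kinases is near what the table as a whole gives. Whether the change of Blk differed from that of the other kinases was not tested.

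**Figure D1:**
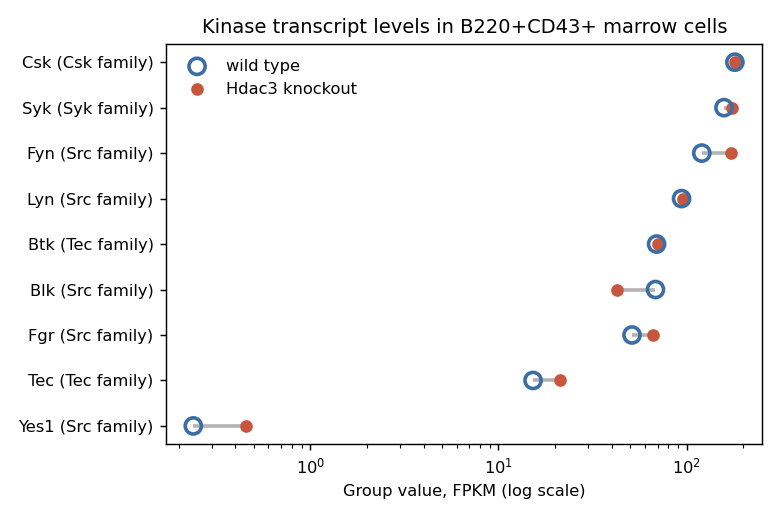
Transcript level of the 9 kinases in FPKM on a log axis, with open blue circles for wild-type and filled red circles for knockout cells; each circle is 1 group value from 2 libraries, with no error available. Blk is the one kinase whose knockout value lies left of its wild-type value, and the circles of Csk, Lyn and Btk lie on each other.

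Blk, B lymphoid kinase, is a Src family kinase largely restricted to the B lineage and a few other lymphoid and dendritic cells. Its gene lies on chromosome 14 from 63372837 to 63417187 of mm10, on the minus strand. None of its exons overlaps an exon of another annotated gene. The log2 fold change was -0.67 (SE 0.27), with an approximate 95% interval from -1.21 to -0.13. The authors' deposited table gives p = 0.0005 and q = 0.0113. The call was lost at a q threshold of 0.01. It was also lost when the authors' test statistic was read against a normal distribution, where the Benjamini-Hochberg adjusted p was 0.227.

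The nearest tested gene to Blk is Fam167a, 19.2 kb away, which was 3.37 in wild-type and 2.73 FPKM in knockout cells, and it did not pass the test. The 3 nearest tested entries on each side of Blk, looked up after its values were seen, had log2 fold changes from -0.31 to 0.25, and none was called. The decrease of Blk was therefore larger than the difference at any of these 6 entries, of which Fdft1 and Ctsb share the same locus.

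Lyn and Fyn, the other Src family kinases usually named in B cells, were not lower in the knockout group. Lyn, which both starts receptor signals and recruits inhibitory phosphatases, was 93.9 in wild-type and 95.0 FPKM in knockout cells, a log2 fold change of 0.02 (SE 0.26). Its approximate 95% interval ran from -0.48 to 0.52, so a change of up to 1.43-fold upward or to 0.715 of the wild-type level is within it. The Lyn entry (chromosome 4, 3678121 to 3791612, plus strand) shares its locus with the entry 6330407A03Rik, at 0.231 and 0.120 FPKM. Of the exonic bases of Lyn, 6.09% overlap exons of the opposite-strand gene Gm26857. Fyn, a kinase of T and NK cells as well as B cells (chromosome 10, 39369799 to 39565374, plus strand), was 120 in wild-type and 172 FPKM in knockout cells. That 1.43-fold difference, 0.52 on the log2 scale (SE 0.32), had q = 0.149 in the authors' deposited table. Its approximate interval ran from -0.10 to 1.14.

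Fgr and Yes1 complete the Src family members. Fgr, best known from myeloid cells (chromosome 4, 132974095 to 133001882, plus strand), was 51.2 in wild-type and 65.8 FPKM in knockout cells, a log2 fold change of 0.36 (SE 0.29). Yes1, a widely expressed relative of Src (chromosome 5, 32611171 to 32687066, plus strand), was 0.239 and 0.455 FPKM, a log2 fold change of 0.93 (SE 0.61) with an interval from -0.27 to 2.12. With a pseudocount of 1 FPKM that change was 0.23. The Yes1 value is less certain also because 8.46% of its exonic bases overlap exons of the opposite-strand gene Gm10461.

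Syk, the kinase that binds phosphorylated receptor chains (chromosome 13, 52583437 to 52648792, plus strand), was 158 in wild-type and 174 FPKM in knockout cells. Its log2 fold change was 0.14 (SE 0.35) with an interval from -0.54 to 0.82. Btk, whose loss in humans causes X-linked agammaglobulinaemia (chromosome X, 134542341 to 134583140, minus strand), was 69.2 and 70.4 FPKM, a log2 fold change of 0.03 (SE 0.26) with an interval from -0.48 to 0.53. Tec, the founding member of the Btk family (chromosome 5, 72755723 to 72868448, minus strand), was 15.3 in wild-type and 21.2 FPKM in knockout cells. That is 1.39-fold or 0.48 on the log2 scale (SE 0.29), and it did not pass the test (q = 0.155 in the authors' deposited table). Csk, the inhibitor of the Src family (chromosome 9, 57626646 to 57645180, minus strand), was 180 in wild-type and 181 FPKM in knockout cells, a log2 fold change of 0.01 (SE 0.30) with an interval from -0.58 to 0.59.

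**Figure D2:**
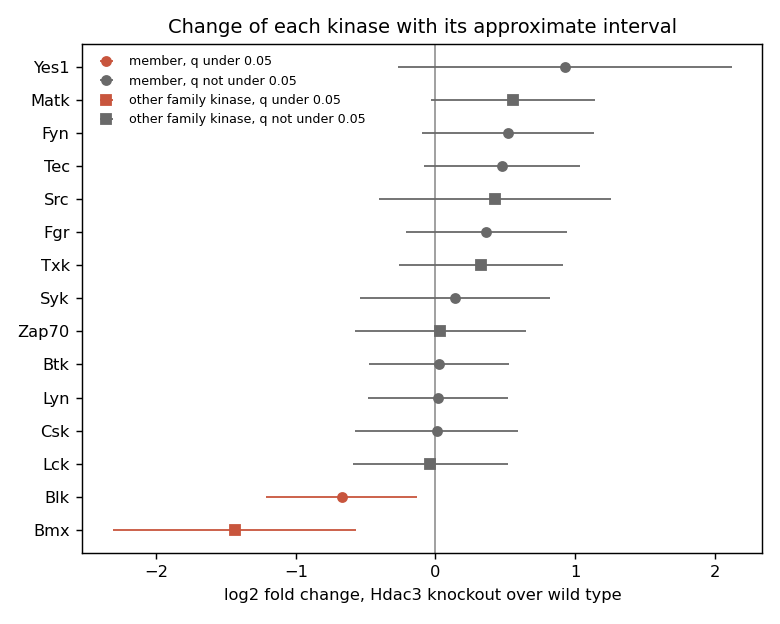
Log2 fold change of the 9 kinases (circles) and of 6 further kinases of the same families (squares), knockout over wild type, with the approximate 95% interval from the authors' test statistic as bars. Red marks q under 0.05; Blk and Bmx are the red points, both left of 0, and the intervals of the grey points all include 0.

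The precision of the table sets what could be called at these levels. Among 2127 tested entries with a mean of 40 to 200 FPKM, the range that holds 7 of the 9 kinases, 7.24% were called, the median SE was 0.27, and the smallest called difference was 0.56 on the log2 scale. The differences of Fyn, Fgr, Syk, Btk, Lyn and Csk were all smaller than that. Of the 135 entries in this range whose log2 fold change was at least as large in size as that of Blk, 112 were called. An unadjusted p under 0.05 was given in the authors' deposited table for 4 of the 9 kinases, Blk, Fyn, Tec and Yes1, against 17.1% of all tested entries. With the normal approximation to the test statistic 1 kinase, Blk, had such a p, against 10.3% of all tested entries, and the approximate intervals of Fyn, Tec and Yes1 include 0.

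In order of level, wild-type cells held most transcript of Csk, followed by Syk, Fyn, Lyn, Btk, Blk, Fgr, Tec and Yes1. In knockout cells the order was the same but for Blk and Fgr, which changed places as sixth and seventh. Syk at 174 FPKM and Fyn at 172 FPKM were then nearly level. Without values of single libraries, which neighbours in this order differ beyond their spread cannot be said. Csk and Syk, the most abundant, ranked 452 and 502 among the 12683 tested entries by mean level, while Yes1 ranked 12552.

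Blk made up a smaller share of the Src family transcripts summed here in knockout than in wild-type cells, and Fyn a larger one. Over 7 Src family kinases (the 5 above with Src and Lck) the summed level was 383 in wild-type and 424 FPKM in knockout cells. Blk made up 17.8% of that sum in wild-type and 10.1% in knockout cells. Fyn made up 31.4% and 40.6%. Lyn went from 24.5% to 22.4% and Fgr from 13.4% to 15.5%. The ratio of Fyn to Blk was 1.76 in wild-type and 4.03 in knockout cells, and that of Blk to Lyn was 0.727 and 0.450. The summed level of these 7 kinases was 2.12 times that of Csk in wild-type and 2.34 times in knockout cells. These shares and ratios combine group values and were not tested.

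**Figure D3:**
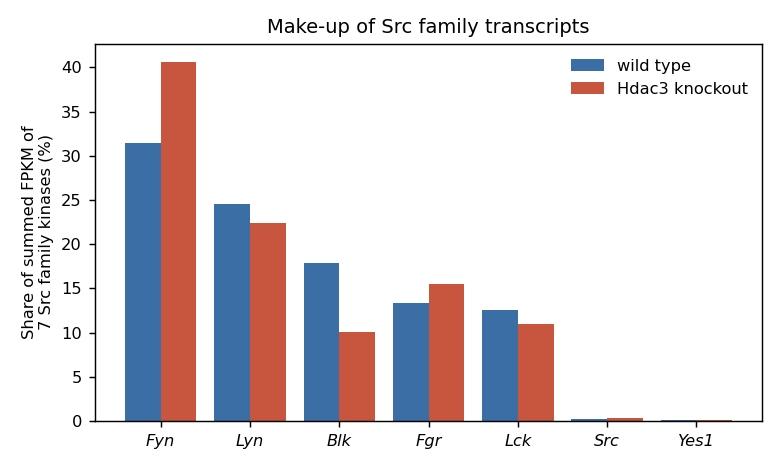
Share of each of 7 Src family kinases in their summed FPKM, in percent, with blue bars for wild-type and red bars for knockout cells and no error available. The Blk bar goes from 17.8% to 10.1% and the Fyn bar from 31.4% to 40.6%; Src and Yes1 are near 0 in both genotypes.

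Of 8 further kinases of these families, 6 were tested, 1 fell and 0 rose, while 4.14% of all tested entries fell and 2.81% rose. Bmx, a Tec family kinase known from endothelium, neutrophils and monocytes, fell 2.71-fold from 1.40 to 0.518 FPKM (log2 fold change -1.44, SE 0.44). The call of Bmx rests on a low level and left the count when entries were required to reach 1 FPKM in both genotypes. Neutrophil and monocyte markers were lower in the same samples: of 15 tested 11 fell and 1 rose, their median log2 fold change was -1.97, and their summed level was 10866 in wild-type and 2705 FPKM in knockout cells. S100a8 and S100a9, calcium-binding proteins of neutrophils, fell from 4815 to 1172 FPKM and from 3333 to 831 FPKM. Ltf, lactoferrin of neutrophil granules, fell from 218 to 50.9 FPKM, while Cd14, a monocyte receptor, rose from 0.602 to 2.94 FPKM. No marker of this list in the table was at 0. Of 6 tested basophil and mast cell markers 3 fell, all 6 had negative fold changes, and their sum was 22.5 in wild-type and 4.78 FPKM in knockout cells, led by Prss34 and Mcpt8. Of 5 tested erythroid and megakaryocyte markers 1 fell and 0 rose, 2 had positive and 3 negative fold changes, and the median was -0.09. Car2, a carbonic anhydrase, fell from 54.4 to 26.3 FPKM, and the globin Hbb-bs, not called, was 5.01 in wild-type and 7.37 FPKM in knockout cells. The part of these cells in the fall of Bmx was not tested. Fgr, best known from myeloid cells, was 1.29-fold higher in the knockout group and was not called, and which cells held it was not tested.

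Lck, Zap70 and Txk, lymphocyte kinases outside the 9, did not pass the test. Lck, the main Src family kinase of T cells, was 47.9 in wild-type and 46.6 FPKM in knockout cells. Zap70, the T and NK cell counterpart of Syk, was 10.2 and 10.5 FPKM, so Syk exceeded it 15.4-fold and 16.6-fold. Txk, a Tec family kinase of T and NK cells, was 10.7 and 13.4 FPKM. Btk made up 71.7% of the summed level of the Tec family kinases Btk, Tec, Txk and Bmx in wild-type and 66.7% in knockout cells, and Tec 15.8% and 20.1%. Matk, a relative of Csk, was 8.21 and 12.1 FPKM, Src was 0.916 and 1.23 FPKM, Srms was 0.187 FPKM or less and not tested, and Frk was listed at 0 in both.

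Transcripts listed as markers of other lymphoid and dendritic cells were present in both genotypes, and which cells held them was not tested. T, NK and innate lymphoid markers, of which 1 of 16 rose and 0 fell, summed to 943 in wild-type and 1120 FPKM in knockout cells. Their median log2 fold change was 0.20. They were led by Cd7 at 242 and 329 FPKM and Nkg7 at 184 and 185 FPKM. Cd3e, a chain of the T-cell receptor complex, was only 4.82 and 5.60 FPKM. Plasmacytoid dendritic cell markers, of which 1 of 11 rose and 0 fell, summed to 3051 and 4024 FPKM with a median log2 fold change of 0.44, led by Ly6d and Bst2. The called genes were Eomes and Cd209d. Among all tested entries 2.81% rose and 4.14% fell. The 12 B-lineage markers, of which 7 rose and 0 fell, summed to 3844 in wild-type and 4997 FPKM in knockout cells, with a median of 0.63. Rag1 and Rag2, the recombinase subunits, were among those that rose, Rag2 in an entry that shares its locus with another. Igll1, Vpreb1, Blnk and Pax5 were also among them and are counted again in the pathway lists below. Cd24a, the most abundant of the 12 and the one with a negative fold change, was 1523 and 1195 FPKM and was not called. With the normal approximation to the test statistic 2 of the 7 B-lineage calls remained and that of Eomes was lost, and at a q threshold of 0.01 the counts were 3 and 0. Markers of all 3 kinds thus summed to more in the knockout group, in which Blk fell and the level of Fyn, not called, was higher. Their part in the values of Fyn, Fgr, Lck and Blk was not tested, and in bulk samples fewer cells of a type and less RNA per cell cannot be told apart. No marker of these 3 lists in the table was at 0.

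Upstream of the kinases, 2 of 12 tested receptor and signal chains rose and 2 fell, with a median log2 fold change of 0.23. Over all tested entries 2.81% rose and 4.14% fell. Igll1 and Vpreb1, the surrogate light chains that form the pre-B-cell receptor with the heavy chain, rose 1.64-fold and 1.57-fold. Cd38, an ectoenzyme of the lymphocyte surface, fell 1.80-fold from 35.9 to 20.0 FPKM, and Cr2, a complement receptor of B cells, fell from 0.546 to 0.106 FPKM. Cd79a and Cd79b, the chains that Blk, Lyn and Fyn phosphorylate, were 268 and 334 FPKM and 359 and 472 FPKM and did not pass. Nor did Vpreb3, at 773 and 721 FPKM, or Tyrobp, the signal chain of myeloid and NK receptors, at 1185 and 1400 FPKM. The calls of Igll1 and Vpreb1 were lost at a q threshold of 0.01 and with the normal approximation, and those of Cd38 and Cr2 held under both. The call of Cr2 rests on a low level, and it left the count when entries were required to reach 1 FPKM in both genotypes.

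Downstream, 2 of 28 tested adaptors and effectors rose and 2 fell, with a median of 0.18. Over all tested entries 2.81% rose and 4.14% fell. Blnk, the adaptor that Syk phosphorylates, rose 1.68-fold from 220 to 370 FPKM, and Pik3ap1, an adaptor linking Syk and Btk signals to PI3 kinase, rose 1.87-fold from 113 to 212 FPKM. Bank1, a scaffold reported to bind Lyn and Blk, fell 2.66-fold from 5.47 to 2.06 FPKM. Rasgrp1, an exchange factor for Ras, fell 1.75-fold from 15.9 to 9.11 FPKM. Plcg2, the substrate of Btk, was 72.5 and 76.4 FPKM, Prkcd 126 and 141 FPKM and Grb2 80.4 and 81.7 FPKM, none of them called. With the normal approximation the calls of Blnk, Pik3ap1 and Rasgrp1 were lost and that of Bank1 held, and at a q threshold of 0.01 that of Blnk was lost.

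A list of 30 tested genes whose products restrain or release the kinases held phosphatases, ligases, anchors, adaptors and inhibitory receptors. Of these 30, 3 rose and 4 fell, with a median of 0.05. Over all tested entries 2.81% rose and 4.14% fell. Ptpn22, the phosphatase partner of Csk and the only phosphatase called, rose 1.62-fold from 20.7 to 33.5 FPKM. Lax1, a membrane adaptor that dampens receptor signals, rose 1.72-fold from 24.8 to 42.6 FPKM, and Cd5, an inhibitory receptor of T cells and B-1 cells, rose 2.71-fold from 2.26 to 6.14 FPKM. The other 4 fell. Dok3, an inhibitory adaptor below Lyn, went from 121 to 63.1 FPKM, a 1.92-fold decrease. Cd72, an inhibitory receptor of B cells, fell 1.92-fold in an entry that shares its locus with another. Fcgr2b, the inhibitory Fc receptor whose tail Lyn phosphorylates, fell 2.16-fold from 30.0 to 13.9 FPKM. Sit1, a membrane adaptor that recruits the phosphatase Ptpn11, fell 2.34-fold from 17.9 to 7.64 FPKM. Ptprc, and Ptpn6, the phosphatase recruited by many inhibitory receptors, at 181 and 193 FPKM, were not called, and neither was Pag1, a membrane anchor of Csk, at 16.4 and 16.7 FPKM. The ligases Cbl and Cblb were not called either. With the normal approximation the calls of Ptpn22, Lax1 and Cd72 were lost and the other 4 held.

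Of 14 tested transcription factors of the B lineage and the PU.1 family, 2 rose and 0 fell, with a median of 0.17. Over all tested entries 2.81% rose and 4.14% fell. Pax5, an activator of many B-lineage genes including Blk, rose 1.52-fold from 79.7 to 121 FPKM, and Foxo1 rose 2.03-fold. Ebf1, another activator of B-lineage genes, was 77.4 and 107 FPKM, Irf8 514 and 672 FPKM and Pou2af1, a coactivator of octamer factors, 340 and 363 FPKM, all without a call. Spi1 (PU.1), present in the table under an older symbol, was 46.1 and 38.4 FPKM. The call of Pax5 was lost at a q threshold of 0.01 and with the normal approximation, and that of Foxo1 held under both.

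**Figure D4:**
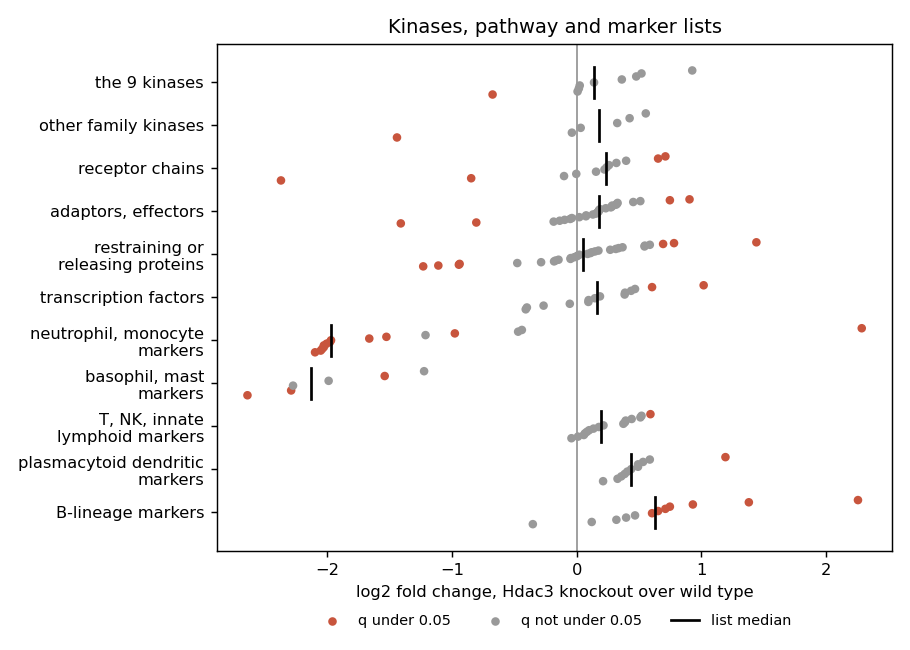
Log2 fold change, knockout over wild type, of every tested gene of the kinases, the pathway lists and the marker lists other than the erythroid one; red points have q under 0.05, black bars are list medians, and points are set apart vertically by rank alone. The 9 kinases centre near 0.14 with Blk on the left, while the neutrophil and monocyte markers centre at -1.97 and the B-lineage markers at 0.63.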

How the data were processed

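RNA of 4 libraries was measured, 2 per genotype, grouped by the labels' titles. Per the labels' protocols, polyadenylated RNA went into Illumina TruSeq libraries. Per the submitters' processing notes, Trimmomatic 0.32, TopHat2 2.0.11 and Cuffdiff 2.1.1 were used with the mm10 build; their options, annotation and scaling are unknown here. The authors deposited 1 FPKM value per gene and genotype, with a p-value and q-value. Their deposited test statistic, a score, was used for approximate standard errors. A Benjamini-Hochberg adjustment computed from the p-values of the 12683 tested entries gave the q-value to within 5.27e-07.

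Fold changes were computed from FPKM without a pseudocount, and positions were shifted to count from 1. Exon overlaps come from GENCODE M21. The kinases and the 11 gene lists were chosen with earlier results of these data known, and no test over a list was run. Some genes, such as Pax5, Blnk, Cd79a and Irf8, are in several lists, so the counts of those lists are not separate results. Named from each pathway list were called genes, up to 8, and the 2 uncalled genes with the highest mean, and from each marker list the 2 highest and up to 2 called genes; others, such as Cd79a, Cd79b, Plcg2, Pag1, Ebf1, Spi1 and Cd3e, were chosen after their values were seen. Ighm, Ly6g, Trbc1, Trbc2 and a few further listed genes are not reported here, and list counts and family sums leave them out. P-values measure the spread the authors' model gives 2 pooled libraries per genotype. The calculations were tested on simulated data with normal errors and planted changes larger than that of Blk. That check does not bear on calls of the size of Blk. The alternatives were other q thresholds, a minimum fold of 1.5, a minimum of 1 FPKM, the reading of the test statistic, shared loci, a pseudocount of 1 FPKM and the scaling. The software was scipy 1.17.1, numpy 2.4.6, pandas 2.3.3 and matplotlib 3.10.9 under Python 3.11.15.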

Additional observations from a re-analysis of the deposited data

How the results depend on the processing

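The call of Blk depended on the threshold: at a q under 0.01 the count of called kinases was 0 and that of all tested entries 534 in place of 881, and with the normal approximation to the authors' test statistic the counts were 0 and 471. The count of called kinases was 1 at a q under 0.10, with a fold of at least 1.5, with at least 1 FPKM in both genotypes and without shared loci. Centring on the median gene, a shift of 0.02, turned the sign of 2 uncalled kinases, Csk to -0.0168 and Lyn to -0.0065. Of the 9 alternatives only the pseudocount, the centring and the scaling alter a fold change, and no other direction among the 9 kinases turned under these. Lyn had no value without shared loci, and Yes1 none with at least 1 FPKM in both genotypes. With the normal approximation the counts of called genes went to 2 of 4 for receptor chains, 1 of 4 for adaptors and effectors, 4 of 7 for restraining or releasing proteins and 1 of 2 for transcription factors. At a q under 0.01 receptor chains had 2 and transcription factors 1. With at least 1 FPKM in both genotypes the other family kinases had 0 in place of 1 and receptor chains 3 in place of 4. That minimum leaves out Bmx, at 0.518 FPKM in knockout cells, and Cr2, at 0.546 and 0.106 FPKM. In the authors' deposited table q was 0.0318 for Igll1, 0.0209 for Vpreb1 and 0.0354 for Pax5, all above 0.01. Why the normal approximation gave fewer calls was not tested. No paired analysis was possible because the deposited values combine the libraries of a genotype, and for the same reason no library could be left out. The depth is unknown, and among the 9 kinases Yes1 had the lowest level, under 0.5 FPKM in both genotypes.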

Other observations

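Cytoplasmic tyrosine kinases outside the Src, Csk, Syk and Tec families, a list added after the other values were seen, showed no call. Of 11 tested, 0 passed Cuffdiff's test in either direction, against 6.95% of all tested entries. Of the same 11, 2 had an unadjusted p under 0.05 in Cuffdiff's test, against 17.1% of all tested entries. With the normal approximation to its statistic 0 were called and 0 had an unadjusted p under 0.05, against 10.3% of all tested entries. Their median log2 fold change was 0.29, from -0.49 for Tnk2 to 0.44 for Ptk2. Jak1, a kinase of cytokine receptors, was the most abundant of them at 85.1 in wild-type and 108 FPKM in knockout cells. Fes, a kinase prominent in myeloid cells, was 37.0 and 49.8 FPKM, and Tnk2 16.0 and 11.4 FPKM. Ptk2b, a focal adhesion kinase of blood cells, was 46.3 and 57.1 FPKM, and Abl1 27.2 and 35.4 FPKM.

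None of the 6 nearest tested neighbours of Bmx was called.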
